A study of Mus musculus with 6 samples.

Results

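The clustered histone genes code for the histones that package newly copied DNA. They were taken here as every gene whose symbol starts with Hist1h, Hist2h, Hist3h or Hist4h, the older mouse names of genes that sit in chromosomal clusters. The expression table held 48 of them among 15443 gene symbols. There were 5 genes for the linker histone H1, 13 for H2A, 15 for H2B, 6 for H3 and 9 for H4. In GENCODE M21 on GRCm38, 40 lie on chromosome 13, 5 on chromosome 3, 2 on chromosome 11 and 1 on chromosome 6. In 44 the longest protein-coding transcript has a single exon.

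Marrow cells from C57BL/6J mice of wild-type genotype, an inbred strain, were grown for 3 days with 50 ng/ml of FLT3LG, the cytokine under which marrow progenitors give rise to dendritic cells (DCs). The 3 control libraries (replicates 1, 2 and 4) had no further addition. The 3 midkine libraries (replicates 3, 4 and 5) also received recombinant human midkine, a heparin-binding growth factor, at 10 ng/ml throughout. The labels name unsorted marrow cells, do not give the animals' age, and do not state if replicates came from different mice or culture wells. The p-values thus describe the spread among these libraries, and that spread may be technical.

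A cell copies its chromatin in S phase, when the clustered genes are switched on together and most of the demand for new histones is met. Their mRNAs are unusual: they end in a short stem-loop that the protein SLBP binds, they carry no poly(A) tail, and they are degraded when replication stops. Some clustered genes can also give a longer, polyadenylated mRNA, mainly in cells that leave the cycle. The QuantSeq 3′ kit (FWD) used here primes on runs of A and reads a transcript near its 3′ end, so that levels are not scaled to gene length. The values therefore count polyadenylated or internally primed histone RNA, not all histone mRNA.

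The stem-loop is shown for members that carry much of the signal and for those whose version differs. It was searched on the sense strand as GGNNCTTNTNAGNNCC in the first 100 bases after the stop codon. Only the longest protein-coding transcript of each gene was searched, so other transcripts of a gene are not covered. This pattern was found in 34 of the 39 members with at least 16 annotated bases there (87.2%) and in 2 of 12339 other genes (0.0162%), H2afx and Snrpa. All 34 can form 6 base pairs, and they start 21 to 54 bases after the stop codon. The match in Snrpa cannot pair along the whole stem. Capitals mark the stem, and the lower-case letters between them are the 4-base loop.
Hist1h1c, chr13:23739507-23739532, plus strand: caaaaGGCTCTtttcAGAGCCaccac
Hist1h1e, chr13:23621777-23621802, minus strand: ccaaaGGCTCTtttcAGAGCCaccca
Hist3h2a, chr11:58955167-58955192, plus strand: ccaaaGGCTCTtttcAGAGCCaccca
Hist1h2bk, chr13:22036295-22036320, plus strand: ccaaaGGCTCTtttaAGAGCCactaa
Hist2h2ac, chr3:96220413-96220438, minus strand: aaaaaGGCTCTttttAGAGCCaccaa
Hist1h3g, chr13:23535884-23535909, plus strand: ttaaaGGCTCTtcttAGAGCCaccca
Hist1h4b, chr13:23757361-23757386, plus strand: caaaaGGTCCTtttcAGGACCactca
Hist1h4d, chr13:23581945-23581970, plus strand: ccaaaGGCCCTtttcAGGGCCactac
Hist1h4i, chr13:22040961-22040986, minus strand: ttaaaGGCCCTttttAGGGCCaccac
There were 7 versions among the 34. The version of Hist1h1c, Hist1h1e and Hist3h2a occurred in 20 members, that of Hist1h4d in 6, that of Hist1h2bk in 3 and that of Hist1h4i in 2. Those of Hist2h2ac, Hist1h3g and Hist1h4b occurred once each. Hist1h1c, Hist1h1e and Hist3h2a share the same 16 bases, and their values with midkine, given below, went in different directions. Their annotated transcripts run on for 840, 1153 and 1643 bases after the stem-loop. The part of the stem-loop in these values was not tested.

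Library depth ranged from 5985684 to 7233960 reads. The library midkine 5 stood apart from the rest: its correlation with the other libraries over the genes tested was 0.9205 to 0.941 (Pearson r on the log2 scale, across genes, which are not independent replicates), against 0.9662 to 0.9853 among the other 5. Fold changes are therefore given with and without it. Because it was singled out from the same data, p-values of the fits without it may be too small. Those calls are a description of the other 5 libraries. RNA integrity numbers were reported only as an average of 8 and a range of 5 to 10 over the samples, so the value of midkine 5 is unknown.

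Histone transcripts were lower in the midkine libraries as a whole, while a few well-expressed members were level or higher. The summed normalised read count of the 48 members was 5316, 6436 and 5976 in the control libraries and 4792, 4505 and 2806 in the midkine libraries, so the groups did not overlap. Of the 46 members with a mean of at least 5 over the 6 libraries, 38 had a log2 fold change below 0 and 8 above 0. Their median was −1.05, ranging from −2.44 (Hist1h2ab) to 0.54 (Hist2h3c2), against −0.004 over all 13543 genes tested. By library, the members' median relative to the control mean was −0.66 in midkine 3, −1.06 in midkine 4 and −1.32 in midkine 5. In whole-culture RNA, fewer cells of a type and less RNA per cell cannot be told apart.

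No member passed the test in the fit of all 6 libraries. With limma and Benjamini-Hochberg adjustment over all genes, 0 of 46 members were called lower and 0 higher, as were 0 of 13543 genes (0%) in each direction. The smallest adjusted p of a member was 0.0757, for Hist1h2bk. At an unadjusted p under 0.05, 26 of 46 members were lower and 1 was higher, against 9.30% and 10.4% of all genes. Of the other tools run on the recovered reads, edgeR called 0 of 35 members (0.0246% of genes lower, 0.0492% higher). DESeq2 called 10 of 29 members lower and 0 higher, against 1.95% and 3.97% of genes.

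Leaving out midkine 5 changed the calls. With midkine 3 and midkine 4 against the 3 controls, limma called 20 of 46 members lower and 3 higher, where 8.52% of all genes were called lower and 9.92% higher. The 3 higher members were Hist1h1c, Hist1h2bc and Hist3h2a. With edgeR the counts were 19 lower and 3 higher of 38 members (9.14% and 11% of genes). The members' median log2 fold change was then −0.89. Groups that did not overlap were counted over all 6 libraries too: 28 of 46 members were lower in every midkine library than in every control and 1 was higher (Hist3h2a), against 15.3% and 15.5% of all genes.

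**Figure D1:**
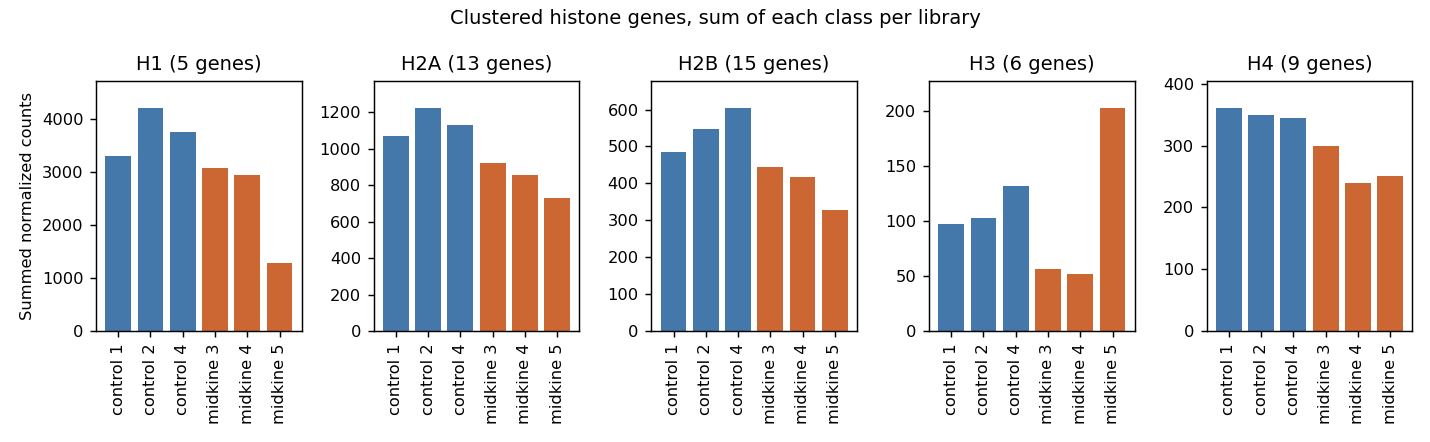
Summed normalised read counts (vertical axis, starting at 0) of each histone class in each library, control in blue and midkine in orange. H1, H2A, H2B and H4 are lower in all 3 midkine libraries than in any control, and H3 is lower in midkine 3 and midkine 4 but highest in midkine 5, where Hist1h3d alone had 157.

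Linker histones bind the DNA between nucleosomes and compact the chromatin fibre, and their genes gave most of the signal. The summed H1 count was 3304, 4213 and 3766 in control libraries and 3071, 2939 and 1293 in midkine libraries. The median log2 fold change of the 5 genes was −1.47, and −0.89 without midkine 5. Without midkine 5, limma called 4 of them lower and 1 higher (8.52% and 9.92% of all genes). H1 thus held members called in opposite directions.

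Hist1h1b (chr13:21779883-21780625, coding H1.5) had 737, 780 and 981 normalised counts in the control libraries and 446, 443 and 134 in the midkine libraries. Midkine 3 and midkine 4 were alike and midkine 5 was far below them. The log2 fold change was −1.47 ± 0.43 (SE, limma adjusted p = 0.14), and −0.89 ± 0.12 without midkine 5 (adjusted p = 8.7e-05). Hist1h1d (chr13:23553262-23560686, H1.3) had 308, 423 and 372 against 174, 174 and 26.3. This gave a log2 fold change of −1.96 ± 0.64 (limma adjusted p = 0.173), and −1.06 ± 0.14 without midkine 5 (adjusted p = 5.68e-05). In both genes the groups did not overlap and midkine 5 was the lowest library.

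Hist1h1e (chr13:23620629-23622558, H1.4) was the most abundant H1 transcript of the control libraries, at 1175, 1643 and 1221, against 969, 871 and 290 with midkine. Its log2 fold change was −1.09 ± 0.42 (limma adjusted p = 0.217), and −0.53 ± 0.13 without midkine 5 (adjusted p = 0.0068). Its annotated exon overlaps Hist1h2be and Gm11398 on the same strand, and 0% of the 50-base words of its last 300 bases are unique to it, so its reads cannot be assigned with certainty. Hist1h1a (H1.1), named after its values were seen, had 270, 288 and 262 in control libraries and 149, 126 and 8.17 in midkine libraries. That last value rests on 9 reads and lay 33.5-fold below the control mean. Midkine 3 and midkine 4 were below every control and far above midkine 5.

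Hist1h1c (chr13:23738808-23740367, coding H1.2) went the other way in midkine 3 and midkine 4. It had 813, 1078 and 930 in the control libraries and 1334, 1325 and 834 in the midkine libraries, so that midkine 5 fell within the control range. The log2 fold change was 0.28 ± 0.22 (limma adjusted p = 0.478), and 0.51 ± 0.11 without midkine 5 (adjusted p = 0.00455). Of all H1 reads, Hist1h1c made up 24.96% ± 0.536 (SD, n = 3) in the control libraries. In midkine 3, midkine 4 and midkine 5 the share was 43.4%, 45.1% and 64.5%, each with a Wilson 95% interval above every control interval. The highest control interval reached 26.9% and the lowest midkine interval began at 41.7%.

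**Figure D2:**
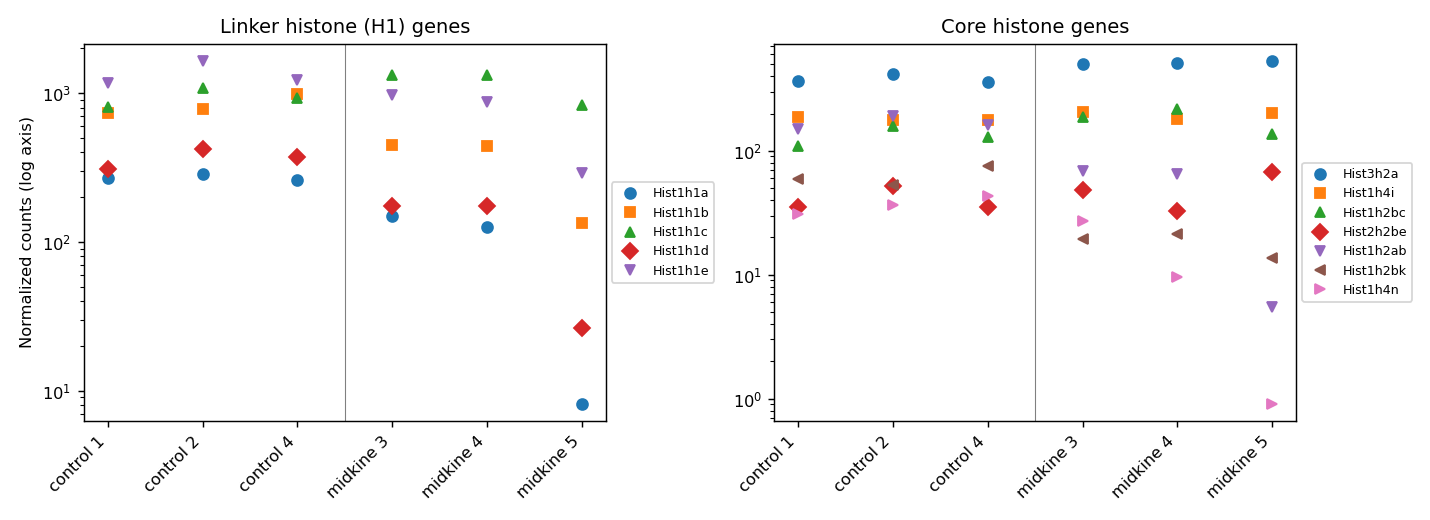
Normalised read counts in each library (log axis) of the 5 H1 genes on the left and 7 core histone genes on the right, chosen to show members that were level, higher or lower. Hist1h1c, Hist3h2a, Hist1h4i and Hist1h2bc keep their level or are higher with midkine, while Hist1h1a, Hist1h1d and Hist1h2ab lie lower in midkine 3 and midkine 4 and lowest in midkine 5.

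H2A forms dimers with H2B in the nucleosome core. The summed H2A count was 1068, 1224 and 1129 in control libraries and 922, 857 and 731 in midkine libraries. The 13 genes had a median log2 fold change of −1.01, with 10 below 0 and 3 above. Without midkine 5 the median was −0.71, and limma called 6 lower and 1 higher (8.52% and 9.92% of all genes).

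Hist2h2ac (chr3:96220361-96220880) had 142, 164 and 172 in control libraries and 90.9, 64.4 and 72.6 in midkine libraries. Its log2 fold change was −1.07 ± 0.19 (limma adjusted p = 0.0788), and −1.04 ± 0.17 without midkine 5 (adjusted p = 0.000446). The difference was thus about as large without that library. The same held for Hist1h2aa, with 68.7, 86.9 and 56.2 against 37.7, 28.5 and 36.3, and a log2 fold change of −1.01 ± 0.24, or −1.06 ± 0.23 without midkine 5. Hist1h2ae had 73.8, 69.5 and 62.1 against 27.1, 26.4 and 13.6, a log2 fold change of −1.63 ± 0.30 (limma adjusted p = 0.0788), and −1.32 ± 0.21 without midkine 5 (adjusted p = 0.000349).

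Hist1h2ab and Hist1h2an showed the largest differences of the class, and both rested partly on midkine 5. Hist1h2ab had 151, 190 and 162 in control libraries against 68.6, 65.4 and 5.45 with midkine. This was a log2 fold change of −2.44 ± 0.81 (limma adjusted p = 0.176), and −1.30 ± 0.16 without midkine 5 (adjusted p = 3.83e-05). Hist1h2an had 128, 149 and 157 against 88.0, 68.6 and 4.54, and its log2 fold change was −2.16 ± 0.91, or −0.88 ± 0.17 without midkine 5. Only 29.9% (Hist1h2ab) and 19.5% (Hist1h2an) of the 50-base words in their last 300 bases are unique to them, so near-identical copies may share their reads.

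Hist3h2a (chr11:58954685-58956830), the most abundant H2A transcript, was the only member higher in every midkine library than in every control. It had 366, 418 and 360 in the control libraries and 505, 513 and 530 in the midkine libraries. The log2 fold change was 0.44 ± 0.14 (limma adjusted p = 0.169), and 0.42 ± 0.11 without midkine 5 (adjusted p = 0.0146). Its share of H2A reads was 33.4% ± 1.36 (SD, n = 3) in control libraries and 54.7%, 59.9% and 72.5% in midkine 3, 4 and 5. Its annotated exon overlaps Trim17 on the same strand. Hist1h2ai lay just inside the filter on low values, with a mean of 5.21 over the 6 libraries, and its log2 fold change of 0.04 ± 0.57, or 0.57 ± 0.52 without midkine 5, was not called.

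The 15 H2B genes had a summed count of 486, 546 and 605 in control libraries and 444, 418 and 329 in midkine libraries. Their median log2 fold change was −1.31, with 13 below 0 and 2 above. Without midkine 5 limma called 5 lower and 1 higher (8.52% and 9.92% of all genes), with a median of −0.90. In 10 of the 15 every midkine library lay below every control, as in 15.3% of all genes.

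Hist1h2bk (chr13:22035870-22036345) gave the smallest p of all members. It had 59.5, 53.2 and 75.0 in control libraries and 19.3, 21.1 and 13.6 in midkine libraries, with a wide gap between the groups. Its log2 fold change was −1.75 ± 0.26 (limma unadjusted p = 0.000137, adjusted p = 0.0757), and −1.57 ± 0.23 without midkine 5 (adjusted p = 0.000212). Hist1h2bp had 37.9, 40.9 and 47.3 against 11.6, 19 and 6.35, a log2 fold change of −1.80 ± 0.38, or −1.43 ± 0.28 without midkine 5. Hist1h2bf had 22.6, 22.5 and 32.5 against 10.6, 5.28 and 2.72, a log2 fold change of −2.03 ± 0.46, or −1.63 ± 0.37 without midkine 5. In all 3 genes each midkine library lay below each control library.

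Hist1h2bc (chr13:23684199-23692908) was the most abundant H2B transcript and was not lower. It had 109, 157 and 129 in control libraries and 187, 216 and 137 in midkine libraries, so that midkine 5 lay within the control range. The log2 fold change was 0.44 ± 0.23 (limma adjusted p = 0.32), and 0.62 ± 0.16 without midkine 5 (adjusted p = 0.0118). Its share of H2B reads was 24.2% ± 4.06 in control libraries and 45.2% ± 5.71 in midkine libraries (SD, n = 3 each), without overlap. Hist3h2ba had 45.1, 70.6 and 79.9 against 69.6, 51.7 and 66.3, and Hist2h2be had 34.9, 52.2 and 35.5 against 48.3, 32.7 and 68.1. Both overlapped between the groups. Hist1h2bl, just inside the filter at a mean of 5.14, had 6.15, 6.14 and 9.86 against 3.87, 2.11 and 2.72.

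H3 carries many of the modified residues of chromatin, and its clustered genes gave few reads here. The summed H3 count was 97.4, 102 and 131 in control libraries and 56.1, 51.7 and 202 in midkine libraries. Midkine 5 was thus the highest library for H3 and the lowest for the sum of all members. Of the 5 H3 genes tested, 4 had a log2 fold change below 0, and the median was −0.44, or −0.50 without midkine 5.

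Hist1h3d (chr13:23575763-23577011) accounted for the high H3 value of midkine 5. It had 61.5, 55.2 and 70.0 in control libraries and 24.2, 24.3 and 157 in midkine libraries, which split the midkine group. Its log2 fold change was −0.44 ± 0.64 over all libraries, and −1.32 ± 0.22 without midkine 5 (limma adjusted p = 0.000505). It was the only H3 gene called in that fit. Hist1h3c had 20.5, 16.4 and 34.5 against 14.5, 6.33 and 14.5, a log2 fold change of −0.97 ± 0.42 (limma adjusted p = 0.253), and −1.15 ± 0.40 without midkine 5 (adjusted p = 0.052). Hist1h3a, Hist1h3g and Hist2h3c2 had group means of 8.36 or less and log2 fold changes of −0.12 ± 0.47, −0.59 ± 0.44 and 0.54 ± 0.47. Without midkine 5 these were −0.33, −0.50 and 0.27. Hist1h3h, with a mean of 3.90, fell below the filter and was not tested.

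H4 pairs with H3 in the core of the nucleosome. The summed H4 count was 361, 350 and 344 in control libraries and 299, 240 and 251 in midkine libraries. Of the 8 genes tested 7 had a log2 fold change below 0, with a median of −1.18. Without midkine 5 the median was −1.06, and limma called 4 lower and 0 higher (8.52% and 9.92% of all genes). Hist1h4f, with a mean of 2.95, was not tested.

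Hist1h4d (chr13:23581598-23582735) had 70.8, 63.4 and 75.9 in control libraries against 35.8, 30.6 and 18.2 with midkine, a clear gap. Its log2 fold change was −1.33 ± 0.28 (limma adjusted p = 0.0881), and −1.06 ± 0.21 without midkine 5 (adjusted p = 0.00158). Hist1h4n had 30.8, 36.8 and 43.4 against 27.1, 9.50 and 0.908, the last being a single read, so its 3 midkine libraries were far apart. Hist4h4 had 12.3, 12.3 and 5.92 against 3.87, 1.06 and 0.908, and Hist2h4 had 15.4, 15.3 and 8.88 against 5.80, 0 and 1.82. A count of 0 in midkine 4 allows a normalised value of up to 3.17 (3 reads). Hist2h4 and Hist4h4 were therefore lower than in every control, at few reads.

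Hist1h4i (chr13:22040636-22041362) was the level member of the class. It had 187, 177 and 178 in control libraries and 206, 182 and 202 in midkine libraries, and the groups overlapped. The log2 fold change was 0.12 ± 0.15 (limma adjusted p = 0.664), and 0.10 ± 0.13 without midkine 5. It made up 51.3% ± 0.613 of H4 reads in control libraries and 75.1% ± 5.82 in midkine libraries (SD, n = 3 each). The summed level of the class therefore understates the difference in the other H4 genes. Hist1h4b had 24.6, 23.5 and 9.86 against 6.77, 9.50 and 17.2, with overlap.

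**Figure D3:**
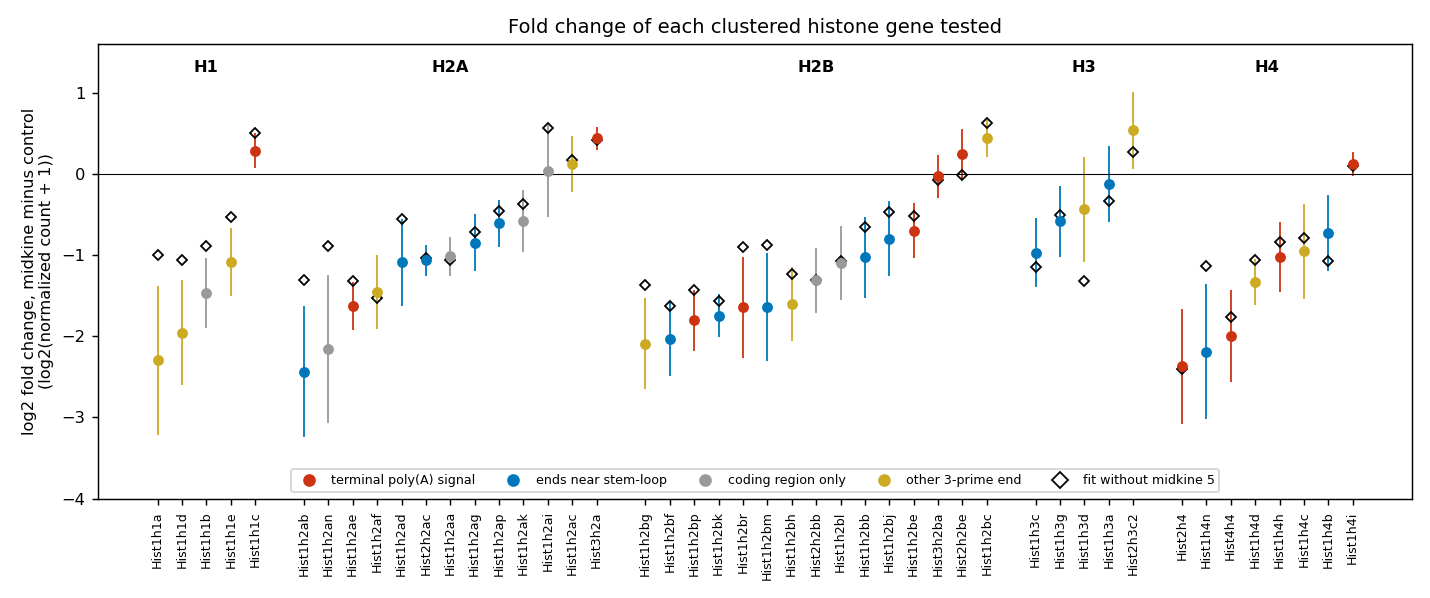
Log2 fold change, midkine minus control, of the 46 members tested (points, with limma standard errors as bars) ordered within each class, coloured by annotated 3′ end, with open diamonds for the fit without midkine 5. Most points lie below 0, and the members above 0 include Hist1h1c, Hist3h2a, Hist1h2bc and Hist1h4i, the member with most reads of its class or next to it.

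Because the libraries prime on poly(A), the members were also grouped by the end of their annotated transcript. The longest protein-coding transcript of each gene was used, and other transcripts of the gene may end elsewhere. In 8 members (7 tested) that transcript ends with the coding region, so no poly(A) signal could be found in them. They are counted below as members without the signal, though their true ends are not known from the annotation. A poly(A) signal (AATAAA or ATTAAA in the last 50 bases) was annotated in 12 members (25%), against 79.0% of the 12420 other protein-coding genes. These 12 were Hist1h1c, Hist1h2ae, Hist1h2be, Hist1h2bp, Hist1h2br, Hist1h4h, Hist1h4i, Hist2h2be, Hist2h4, Hist3h2a, Hist3h2ba and Hist4h4. Their median log2 fold change was −0.86 (−0.68 without midkine 5), with 8 below 0 and 4 above. Of the 34 tested members without the signal 30 were below 0 and 4 above, with a median of −1.08 (−0.94 without midkine 5). Of these, 15 end within 100 bases of the stem-loop, and 15 of 15 were below 0, with a median of −1.03 (−0.88 without midkine 5). No test compared these groups, since members are not replicates.

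The summed counts of these groups differed in direction. Members with the signal summed to 1639, 1974 and 1751 in control libraries and 2239, 2176 and 1736 in midkine libraries, largely through Hist1h1c and Hist3h2a. Members without it summed to 3677, 4462 and 4225 against 2553, 2330 and 1069. Of this, the members annotated only over the coding region gave 978, 1067 and 1262 against 605, 571 and 201. Those that end within 100 bases of the stem-loop gave 580, 642 and 665 against 333, 259 and 183. The largest part, 2119, 2753 and 2298 against 1615, 1500 and 685, came from the remaining members. Hist1h1e, whose reads cannot be assigned with certainty, was the most abundant of these. Of the 12 members with the signal, 7 (58.3%) were lower in every midkine library than in every control. Hist1h2ae, Hist1h2bp, Hist2h4 and Hist4h4 were among these 7. Without the signal 21 of 34 (61.8%) were lower in this way, against 15.3% of all genes. In the other direction, 1 member with the signal and 0 without it were higher in every midkine library, against 15.5% of all genes. In the transcript used, Hist1h2bc has neither the stem-loop nor the signal in the windows searched.

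Near-identical copies limit the assignment of reads to single members. In 16 members every 50-base word of the last 300 bases was unique to the gene, and in 19 fewer than 50% were. The 21 members with at least 80% unique words had a median log2 fold change of −0.95, and the 25 others tested had −1.09. Without midkine 5 these medians were −0.89 and −0.88, so lower values were found among both. Exons of 15 members overlap a gene model on the opposite strand and those of 5 overlap one on the same strand. The strand setting of the counting is not given in the sources used here, so reads of such pairs cannot be told apart.

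Many H2A and H2B genes stand head to head and share the sequence between their starts. The promoter of such a pair is shown with those of Hist3h2a, the member higher in every midkine library, and of Hist1h1b, an H1 gene. Sequences are from RefSeq (GRCm38.p6, 250 bases before to 50 after the start), which matched 44 of the 48 members. Capitals mark motifs found on either strand, none of which contains another. CCAAT is the site read by NF-Y. TATAAA is the core promoter element that places the start. ATTTGCAT is the octamer read by POU factors. AAACACA is a motif known from H1 promoters.
Hist1h2bg, shared with Hist1h2ae, chr13:23571150-23571449, plus strand: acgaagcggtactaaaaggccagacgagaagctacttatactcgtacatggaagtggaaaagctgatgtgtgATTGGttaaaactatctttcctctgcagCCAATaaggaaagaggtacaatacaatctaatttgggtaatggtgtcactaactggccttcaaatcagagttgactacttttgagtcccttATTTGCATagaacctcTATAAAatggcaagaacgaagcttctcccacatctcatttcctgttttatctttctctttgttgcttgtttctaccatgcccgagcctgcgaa
Hist3h2a, chr11:58954435-58954734, plus strand: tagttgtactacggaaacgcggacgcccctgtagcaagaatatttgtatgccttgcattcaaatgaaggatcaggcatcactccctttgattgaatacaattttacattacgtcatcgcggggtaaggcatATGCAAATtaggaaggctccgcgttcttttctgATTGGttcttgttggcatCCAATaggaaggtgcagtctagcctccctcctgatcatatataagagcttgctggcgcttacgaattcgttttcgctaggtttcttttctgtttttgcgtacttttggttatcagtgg
Hist1h1b, chr13:21780576-21780875, minus strand: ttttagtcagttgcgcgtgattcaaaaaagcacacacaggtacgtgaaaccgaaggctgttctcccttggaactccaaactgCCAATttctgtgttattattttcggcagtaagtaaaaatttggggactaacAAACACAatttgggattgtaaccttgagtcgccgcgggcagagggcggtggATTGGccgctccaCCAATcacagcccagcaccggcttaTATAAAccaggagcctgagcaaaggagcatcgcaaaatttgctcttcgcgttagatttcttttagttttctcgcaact
The octamer stands in the promoters of both Hist1h2bg, which was lower with midkine, and Hist3h2a, which was higher. The part of the octamer in these values was not tested.

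Motif matches are a description of these windows. CCAAT was found in 38 of 44 member promoters (86.4%) and in 38.8% of 10373 other promoters of genes in the table. H4 differed from the other classes, with CCAAT in 2 of 8. TATAAA was found in 24 (54.5%, against 7.38% of others) and the octamer in 11 (25%, against 1.38%). All 11 octamers were in H2A (6 of 13) or H2B (5 of 13) promoters. AAACACA was found in 7 members (15.9%, against 4.44%), of which 4 were among the 5 H1 genes.

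There were 8 such head-to-head pairs, with 175 to 278 bases between the starts, and their fold changes ranged widely. The pairs and their genes are named here after their values were seen. Hist1h2ae and Hist1h2bg, 175 bases apart, had log2 fold changes of −1.63 and −2.09 (−1.32 and −1.37 without midkine 5). Hist1h2an and Hist1h2bp had −2.16 and −1.80 (−0.88 and −1.43). Hist1h2ac and Hist1h2bc were above 0 together, at 0.12 and 0.44 (0.17 and 0.62). Hist2h2ac and Hist2h2be, 238 bases apart, differed: −1.07 against 0.24, and −1.04 against −0.01 without midkine 5. Hist1h2bl and Hist1h2ai had −1.10 and 0.04 (−1.08 and 0.57), and Hist1h2ag and Hist1h2bj had −0.85 and −0.80 (−0.71 and −0.46). Hist1h2ap and Hist1h2br had −0.61 and −1.64 (−0.46 and −0.90), and Hist1h2bf and Hist1h2ad had −2.03 and −1.09 (−1.63 and −0.56). The part of the shared sequence in these values was not tested.

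Midkine 5 differed from the other midkine libraries in which members were low. It held under 25% of the control mean for 19 of 46 members, against 4% of all genes. It was the lowest of the 6 libraries for 26 of the 46, and for 4558 of 13543 genes. Hist1h1a, Hist1h2ab, Hist1h2an and Hist1h4n were at under 10 normalised counts there, while Hist3h2a (530), Hist1h4i (202) and Hist1h3d (157) were at or above the control range. The same library was low for genes of small and ribosomal RNAs, a list made after the data were seen from the annotated gene type. It held under 25% of the control mean for 27 of 59 of them, and their median relative to control was −0.19 in midkine 3, −0.57 in midkine 4 and −1.59 in midkine 5. The mitochondrial ribosomal RNA mt-Rnr1 had 99421 to 123442 normalised counts in control libraries, 77686 and 83572 in midkine 3 and midkine 4, and 5594 in midkine 5. The part of priming or RNA quality in these values was not tested.

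**Figure D4:**
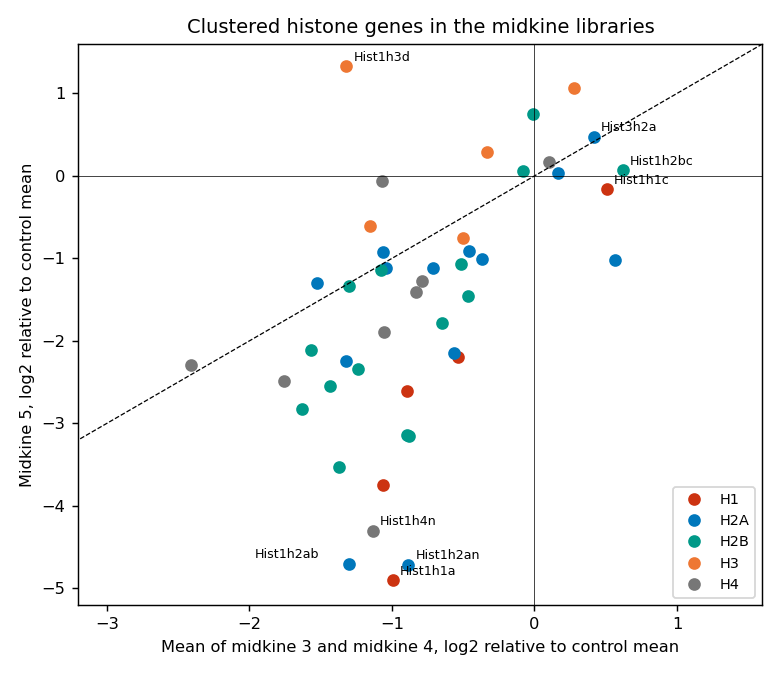
Each of the 46 members tested by its mean log2 value in midkine 3 and midkine 4 (horizontal axis) and in midkine 5 (vertical axis), both relative to the control mean, coloured by class; the dashed line marks equal values. Many members lie far below the line, such as Hist1h1a, Hist1h2ab, Hist1h2an and Hist1h4n, and Hist1h3d lies far above it.

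The 11 listed genes of histone variants, which lie outside the Hist1h to Hist4h set, did not follow the clustered genes as a group. Their summed count was 25480, 23693 and 25047 in control libraries and 26477, 27726 and 37185 in midkine libraries. Their median log2 fold change was 0.45 over 10 genes tested, and 0.22 without midkine 5, when limma called 2 of 10 lower and 4 higher (8.52% and 9.92% of all genes). H3f3a and H3f3b, both coding H3.3, had log2 fold changes of 0.58 and 0.48 (0.47 and 0.51 without midkine 5) and were higher in every midkine library than in every control. H2afy, which codes macroH2A, had 5710, 5245 and 5599 against 3828, 3336 and 3806, a log2 fold change of −0.60, or −0.63 without midkine 5. H2afx, a variant gene whose transcript also carries the stem-loop, had 841, 830 and 774 against 712, 703 and 1018, with overlap.

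Genes that make, trim and deliver histone mRNA and protein showed smaller differences. Of 19 genes tested for 3′ processing and decay of histone mRNA, the median log2 fold change was −0.20, and −0.23 without midkine 5, when limma called 5 lower and 0 higher (8.52% and 9.92% of all genes). Slbp, the stem-loop binding protein, had 306, 318 and 298 in control libraries and 251, 287 and 552 in midkine libraries, so that midkine 5 was the highest. Npat, the activator of the histone gene clusters, had 162, 174 and 184 against 131, 138 and 83.5 (log2 fold change −0.59, limma unadjusted p = 0.0287, and −0.36 without midkine 5). Npat was lower in each midkine library, but was not called in either limma fit. Ncbp2, a subunit of the nuclear cap-binding complex, had the largest difference of the list, −1.05, or −0.69 without midkine 5. For histone chaperones the median was −0.09 over 15 genes, and −0.28 without midkine 5. In the latter fit 6 were called lower and 0 higher, at the same shares of all genes, among them Nap1l1 (−0.42), Asf1a (−0.58) and Supt16 (−0.40).

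Cell-cycle genes were also lower in midkine 3 and midkine 4, by less than the histone genes. The median of 20 S-phase genes relative to control was −0.36 and −0.30 in these libraries and 0.46 in midkine 5, where the histone median was lowest. The genes of this list differed in midkine 5, which was the lowest of the 6 libraries for 4 of the 20. Mcm7 (−1.38), Rrm1 (−0.90) and Ccne2 (−0.81) were below the control mean there. Without midkine 5 limma called 10 of the 20 lower and 0 higher (8.52% and 9.92% of all genes), including Mcm7, a subunit of the replicative helicase (−0.80), and Rrm1, of ribonucleotide reductase (−0.50). Pcna, the replication clamp, had 534, 492 and 526 against 518, 552 and 428, with overlap. Of 14 genes of G2 and mitosis 9 were called lower and 0 higher in the same fit, and Mki67, a marker of cycling cells, had 2634, 2983 and 2697 against 1868, 1630 and 942. Of 7 cell-cycle inhibitors 2 were called higher, Cdkn1c and Cdkn2d, and 0 lower in that fit. Over all 6 libraries 4 of the 7 were below 0, Cdkn1a among them (−0.38), with a median of −0.38, or −0.02 without midkine 5. The part of cell-cycle genes in the histone values was not tested.

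**Figure D5:**
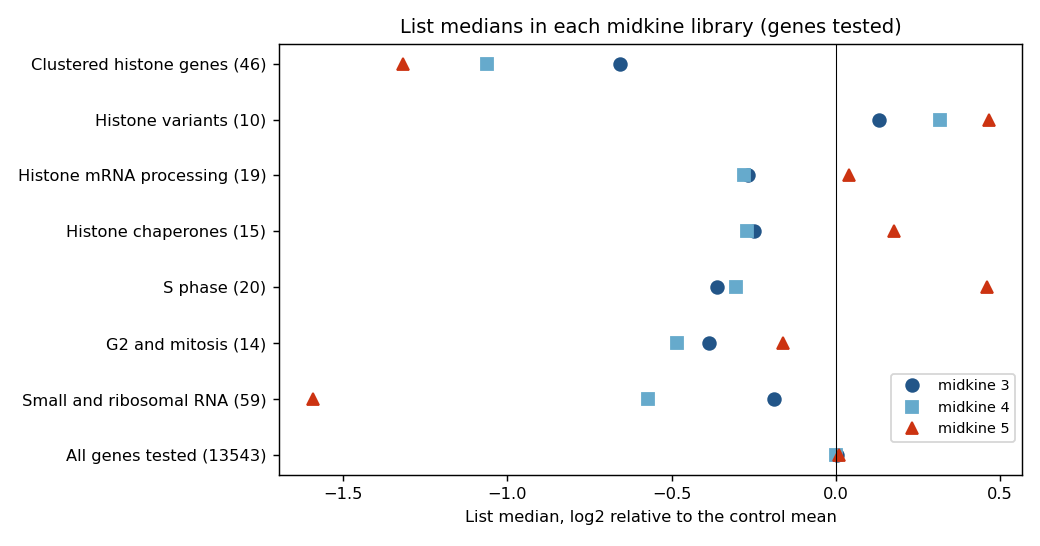
Median log2 value of each gene list in each midkine library relative to the control mean, with the number of genes tested in brackets. The clustered histone genes are lowest in midkine 5 (−1.32), as are the small and ribosomal RNA genes (−1.59), while the median of the S-phase genes is above 0 there (0.46).

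Markers of several cell types also differed between the groups. All 10 DC markers were in the table, and their summed count was 4739 to 5186 in control libraries and 3284 to 3604 in midkine libraries, with 7 called lower and 0 higher by limma without midkine 5. That fit called 8.52% of all genes lower and 9.92% higher. Neutrophil markers (10 of 10 measured) summed to 123237 to 137026 against 176202 to 187977, with 6 called higher and 0 lower in that fit. Monocyte and macrophage markers (10 of 10) summed to 17281 to 18522 against 21350 to 23278, with 6 called higher and 2 lower. B lineage markers (9 of 10, Igll1 not listed) summed to 1711 to 2340 against 1813 to 3601, with 8 called higher and 0 lower. Basophil, mast cell and eosinophil markers (7 of 8, Fcer1a not listed) summed to 964 to 1211 against 1749 to 2707, with 7 called higher and 0 lower. The 6 erythroid markers measured summed to 76.9 to 111 against 153 to 221, with 1 called higher, the beta-globin gene Hbb-bs, and 0 lower. Marker levels thus differed between the groups along with the histone values, and their part in them was not tested.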

How the data were processed

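RNA of 6 cultures was measured by QuantSeq. The signal the authors deposited for each gene symbol is a normalised read count. The submitters' processing notes name TopHat2 2.0.10, Bowtie 1.0.0, HTSeq and DESeq2, with GRCm38 (mm10). For annotation release, strand setting and multi-mapping reads, the choices were not given in the sources used here. In each library 100% of the deposited values were whole multiples of a single step (tolerance 0.01 reads), which returned whole reads, 5985684 to 7233960 per library. Values rest on the authors' size factors.

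The main test was limma 3.58.1 (trend, R 4.3.3) on log2(normalised count + 1) over all genes with a mean of at least 5, two-sided, with Benjamini-Hochberg adjustment over all 13543 and a threshold of 0.05. The pseudocount of 1 understates changes of low genes. Fold changes are midkine minus control, with standard errors. As alternatives, edgeR 4.0.16 (quasi-likelihood test, TMM) and DESeq2 1.42.0 were run on the whole reads. Other settings changed the pseudocount, the filter, the scaling and the libraries. The edgeR fit without midkine 5 and the list of small and ribosomal RNA genes were added after the data were seen. The members and gene lists were chosen with earlier results of these data known. Members were named when called, among the 4 highest means or 3 smallest p of their class, or beside the filter, and any others after their values were seen. Intervals and the 3-read floor cover counting error only, as no molecular identifiers were used. The fits were tested on simulated data without an outlying library, so that test does not cover the effect of midkine 5. Transcript ends and overlaps are from the longest protein-coding transcript of each gene in GENCODE M21, and promoters from RefSeq (GRCm38.p6).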

Additional observations from a re-analysis of the deposited data

How the results depend on the processing

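The direction of the members' median log2 fold change (−1.05) was negative under every setting, from −1.34 without midkine 3 to −0.79 with a pseudocount of 4. Calls depended on the setting. Over all genes the count rose from 0 to 10 with a pseudocount of 4, 9 without a filter, 9 with edgeR, 684 with DESeq2, 16 after quantile normalisation and 7 after TMM scaling. Leaving out 1 library at a time gave 0 to 2497 calls, the highest without midkine 5, where edgeR gave 2506. Lower calls among the members were 10 with DESeq2, 0 to 20 when a library was left out, and 19 with edgeR without midkine 5. Higher calls were 0 to 3 when a library was left out and 3 with edgeR without midkine 5. The cause was not tested.

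The H3 median (−0.44) ranged from −0.50 to 0.0053 when a library was left out, positive only without midkine 3, and was −1.27 over the 2 H3 genes edgeR kept without midkine 5. Of the log2 fold changes of named members under other settings, 352 kept direction and side of the threshold, 46 became called and 15 changed sign. Hist1h3d gave 0.14 with edgeR and 0.14 with DESeq2, and Hist1h3a gave 0.038 after quantile normalisation. When a library was left out, Hist1h3d ranged from −1.32 to 0.0053 (above 0 without midkine 3 or midkine 4), Hist1h3a from −0.47 to 0.17, Hist1h2ai from −0.38 to 0.57 and Hist3h2ba from −0.27 to 0.13. Hist2h2be ranged from −0.012 without midkine 5 to 0.505, and was −0.0054 with edgeR without midkine 5.

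No paired analysis was possible because the groups share only 1 replicate number. Members with few reads limit the precision: 3 reads correspond to a normalised count of 2.72 to 3.17.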
